A study of Homo sapiens with 4 samples.

Results

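The genes described here were 10 feedback inhibitors of mitogen-activated protein kinase (MAPK) signalling, namely the phosphatase genes DUSP1, DUSP4, DUSP5, DUSP6, DUSP8 and DUSP10, the sprouty genes SPRY2 and SPRY4, and the spred genes SPRED1 and SPRED2. They were chosen by gene symbol, and all 10 were among the 28973 genes of the deposited table. The RNA came from TOV-112D, a long-established cell line of human ovarian cancer. Libraries labelled PA (2) came from cells given palmitic acid, a saturated fatty acid, at 200 µM for 24 h. Libraries labelled BSA (2) came from cells given bovine serum albumin, the usual carrier of fatty acids in culture, with the same 200 µM and 24 h in the label. Other labels of the PA libraries name something else as well: a description names a knockdown of SPTLC2 and a protocol names short hairpins against ZDHHC15 and a control hairpin. SPTLC2 had 2194 and 1740 counts in the PA libraries and 1524 and 1080 in the BSA libraries, and ZDHHC15 had 190083 and 167798 counts against 291 and 225. Neither gene was lower in the libraries labelled PA, so every direction below is that of libraries labelled PA whose other labels these counts contradict. The groups differed in ZDHHC15 by these counts, and in the fatty acid by their labels alone. The part of each in the differences below cannot be told apart.

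MAP kinases pass signals from growth factor receptors and from stress to the nucleus. Dual-specificity phosphatases switch them off by removing phosphate from both the threonine and the tyrosine of the activation loop. DUSP1, DUSP4 and DUSP5 act in the nucleus, and many signals induce DUSP1 within minutes. DUSP6 acts on ERK in the cytoplasm, while DUSP8 and DUSP10 act mainly on the stress kinases JNK and p38. Sprouty proteins restrain signalling from receptor tyrosine kinases to RAS and ERK, and spred proteins bring neurofibromin, which inactivates RAS, to the membrane. Several of these genes are themselves switched on by ERK, which makes them brakes that the pathway builds for itself.

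The start-site windows of 4 of these genes are shown because they belong to the highest and lowest members below. DUSP8 and DUSP1 had the smallest p-values among the higher members, SPRED1 was the lowest member, and DUSP6 was the phosphatase gene with the most negative difference. Each window is RefSeq sequence of GRCh38.p14, from 250 bases before the annotated start to 50 after it, written 5′ to 3′ on the gene's strand. Capitals mark TGACG or its reverse complement, the core of the cyclic AMP response element (CRE), whose full form is TGACGTCA. The windows lie at chr11:1572222-1572521 (DUSP8, minus strand), chr5:172771146-172771445 (DUSP1, minus strand), chr15:38252586-38252885 (SPRED1, plus strand) and chr12:89352452-89352751 (DUSP6, minus strand).
DUSP8: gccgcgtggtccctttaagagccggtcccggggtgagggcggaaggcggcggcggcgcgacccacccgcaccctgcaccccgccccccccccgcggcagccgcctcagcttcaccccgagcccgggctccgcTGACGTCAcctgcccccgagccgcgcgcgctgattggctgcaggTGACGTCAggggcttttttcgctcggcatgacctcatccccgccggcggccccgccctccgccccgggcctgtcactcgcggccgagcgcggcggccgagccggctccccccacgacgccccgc
DUSP1: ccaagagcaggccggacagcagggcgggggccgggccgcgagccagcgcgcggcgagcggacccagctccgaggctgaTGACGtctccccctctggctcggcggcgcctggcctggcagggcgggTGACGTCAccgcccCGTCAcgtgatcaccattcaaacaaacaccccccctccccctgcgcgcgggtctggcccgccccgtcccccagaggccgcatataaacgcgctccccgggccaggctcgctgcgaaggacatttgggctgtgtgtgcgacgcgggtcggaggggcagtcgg
SPRED1: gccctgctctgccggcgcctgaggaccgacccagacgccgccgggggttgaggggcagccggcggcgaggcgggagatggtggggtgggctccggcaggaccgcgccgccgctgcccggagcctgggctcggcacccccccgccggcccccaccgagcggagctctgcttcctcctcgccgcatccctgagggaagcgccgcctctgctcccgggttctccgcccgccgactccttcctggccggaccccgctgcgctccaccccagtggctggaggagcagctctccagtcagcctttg
DUSP6: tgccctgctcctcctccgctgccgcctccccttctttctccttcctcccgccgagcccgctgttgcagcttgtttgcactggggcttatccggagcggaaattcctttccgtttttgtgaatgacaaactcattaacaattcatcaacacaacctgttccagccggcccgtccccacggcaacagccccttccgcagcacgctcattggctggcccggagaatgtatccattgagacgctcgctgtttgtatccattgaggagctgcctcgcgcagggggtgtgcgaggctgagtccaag

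Windows were found for 8 of the 10 members, 12 windows in all, and none for DUSP4 and DUSP5. The full CRE, searched on both strands, was in 2 of those 12 windows, against 1.84% of 34943 windows of all genes. DUSP8 held it at 2 places, beginning 118 and 74 bases before the start, and DUSP1 held it at 1, beginning 125 bases before the start. The core TGACG, which is part of every full CRE, was in 6 of the 12 windows, against 24.5% of all windows. DUSP10, SPRY2, SPRY4 and SPRED2 had the core without the full form, and the SPRED1 and DUSP6 windows had neither. The AP-1 site TGANTCA, which 7.72% of all windows held, was in windows of SPRED2 alone among the 8 members. The EGR site GCGTGGGCG and the ETS site CCGGAAGT were in 0 of the 12, and in 0.796% and 4.11% of all windows. Of 3 further motifs searched, the E-box CACGTG (7.23% of all windows) was in a window of DUSP1 alone, TGATGNAA (3.62%) in a window of SPRED2 alone, and the CArG box (1.3%) in none. These matches describe letters in a window and were not tested against expression.

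Total counts were 29662410 and 23722074 in the libraries labelled PA and 28657038 and 31695944 in those labelled BSA. The labels do not say whether the libraries of a group stem from different cultures, and the p-values therefore reflect only the spread among these libraries, which may be technical. The log2 ratio between replicates had an SD over genes of 0.455 for PA and 1.02 for BSA, and in BSA the ratio moved with transcript GC content. Of 9 ovarian epithelial markers, 3 (KRT7, KRT8 and KRT18) were at 1 FPKM (read counts per kilobase of gene and per size of the library) or more in every library. EPCAM had only 20 and 9 counts in PA and 29 and 4 in BSA, and CDH1 had 18 and 5 against 18 and 21. KRT19 and WT1 had 5 counts or fewer in every library. PAX8 and MUC16 both averaged 0.94 FPKM in PA, and 0.55 and 0.32 FPKM in BSA. Of 4 endothelial markers 0 reached 1 FPKM in every library, and their summed FPKM was 0.496 and 0.414 in PA and 0.0399 and 0.0623 in BSA. None of 5 measured immune markers did so, with sums of 1.6 and 1.21 in PA and 1.62 and 3.22 in BSA, and for 5 fibroblast markers, 2 of which did, the sums were 14.1 and 17.7 in PA and 14.1 and 13.1 in BSA. No marker in the table had 0 counts in all 4 libraries, and the part of such markers in the results below was not tested.

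In the libraries labelled PA, 3 of the phosphatase genes stood above their BSA levels, namely DUSP8 (3.29-fold), DUSP1 (2.06-fold) and DUSP5 (1.94-fold), and SPRED1 stood below (2.51-fold lower). The other 6 members differed by less, with SPRY4 and SPRY2 on the higher side, DUSP6 and SPRED2 on the lower side, and DUSP4 and DUSP10 near their BSA levels. None of the 10 passed the test over all genes. edgeR's quasi-likelihood test found 0 of 17449 genes tested (0%) at an adjusted p under 0.05, and 4241 genes had an unadjusted p under 0.05 (24.3%). At that unadjusted threshold stood 4 of the 10 members, 3 higher (13.1% of all genes tested) and 1 lower (11.2%). DESeq2 called DUSP1 and DUSP8 among 1733 genes (9.95%), and limma-voom called 1 gene, which was not a member. The groups did not overlap for 9 of the 10 members, against 58% of all genes tested, a lack of overlap that was thus common in the whole set. After correction for GC content and length of the transcripts, edgeR called DUSP8 alone of the 10, and 8.16% of all genes. In fits without a BSA library, which have only the PA replicates to measure spread, 6 members passed without BSA replicate 1 (4 higher and 2 lower, against 47.9% of all genes) and 8 without BSA replicate 2 (6 higher and 2 lower, against 57.3%). The members' median log2 fold change was 0.31 and that of all genes tested -0.12. Against BSA replicate 1 alone these medians were 0.50 and -0.05, and against BSA replicate 2 alone 0.15 and -0.01. The members' median log2 level had an SD of 0.28 between replicates. As these are bulk libraries, fewer cells with a transcript and less of it per cell cannot be told apart.

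**Figure D1:**
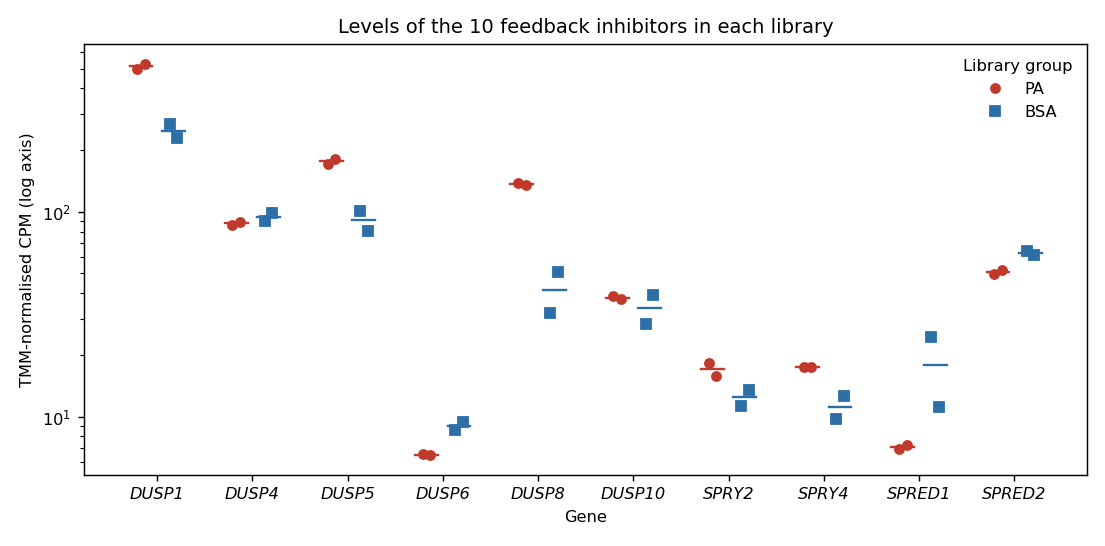
Normalised level (CPM, read counts scaled to library size by TMM, log axis) of each of the 10 genes, with 1 point per library and a short line at the mean of 2 libraries, PA left of BSA. DUSP1, DUSP5 and DUSP8 have both PA points above both BSA points, SPRED1 has both below, and DUSP10 overlaps.

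Among the nuclear phosphatases, DUSP1 (ENSG00000120129, hg38 chromosome 5, 172768096 to 172771195, minus strand) had 497 and 529 CPM (read counts scaled to library size, TMM-normalised) in the PA libraries and 268 and 229 CPM in the BSA libraries. Both PA values lay well above both BSA values. On the log2 scale the fold change was 1.05 ± 0.21 (SE; edgeR adjusted p = 0.0873), and it lay between 0.95 and 1.18 over the 15 alternatives. DUSP5 (ENSG00000138166, chromosome 10, 110497907 to 110511533, plus strand), which acts on ERK, had 172 and 181 CPM in PA and 101 and 80.2 CPM in BSA. Again the groups were apart, at a log2 fold change of 0.96 ± 0.22 (SE; edgeR adjusted p = 0.1). DUSP4 (ENSG00000120875, chromosome 8, 29333064 to 29350684, minus strand) had 86.1 and 89.4 CPM in PA and 90 and 98.1 CPM in BSA. These values nearly touch, and the log2 fold change of -0.10 ± 0.20 (SE) was smaller than its error (edgeR adjusted p = 0.776). After correction for GC content and length of the transcripts, DUSP4 was at -0.37 ± 0.16 (SE; edgeR adjusted p = 0.185).

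Of the phosphatases of stress kinases, DUSP8 (ENSG00000184545, chromosome 11, 1554051 to 1572271, minus strand) had 138 and 135 CPM in PA and 31.9 and 51 CPM in BSA. It had the largest difference of the 10 genes, with a log2 value of 1.72 ± 0.30 (SE; edgeR adjusted p = 0.0766). Against each BSA library alone it was 2.09 for replicate 1 and 1.42 for replicate 2. A row on the opposite strand, KRTAP5-AS1, overlaps DUSP8 and had 98 and 67 counts in PA and 42 and 68 in BSA, against 4014 and 3103 counts of DUSP8 in PA and 954 and 1627 in BSA. DUSP10 (ENSG00000143507, chromosome 1, 221701424 to 221742089, minus strand) had 38.6 and 37.6 CPM in PA and 28.5 and 39.1 CPM in BSA. Here BSA replicate 2 lay above both PA libraries and BSA replicate 1 below both. Its log2 fold change was 0.18 ± 0.28 (SE; edgeR adjusted p = 0.713), and it turned to -0.015 without BSA replicate 1 and was 0.43 without BSA replicate 2.

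DUSP6 (ENSG00000139318, chromosome 12, 89347235 to 89352501, minus strand), the cytoplasmic ERK phosphatase and a widely used readout of ERK activity, was a low gene here. It had 6.57 and 6.48 CPM in PA and 8.6 and 9.41 CPM in BSA, which rest on 191 and 149 counts in PA and 257 and 300 in BSA. Both PA values were below both BSA values. The difference on the log2 scale was -0.46 ± 0.30 (SE, edgeR adjusted p = 0.367), and it lay between -0.51 and -0.36 over the 15 alternatives.

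SPRY4 (ENSG00000187678, chromosome 5, 142310427 to 142326455, minus strand) had 17.4 and 17.4 CPM in PA and 9.71 and 12.7 CPM in BSA. SPRY2 (ENSG00000136158, chromosome 13, 80335976 to 80341126, minus strand), which also binds the ubiquitin ligase CBL, had 18.3 and 15.7 CPM in PA and 11.3 and 13.5 CPM in BSA. For both sprouty genes the PA libraries were above the BSA libraries. Against BSA replicate 2 alone the log2 difference was 0.46 for SPRY4 and 0.33 for SPRY2, while the BSA replicates differed by 0.38 and 0.25. The log2 fold changes were 0.64 ± 0.31 (SE) for SPRY4 and 0.45 ± 0.30 (SE) for SPRY2, with edgeR adjusted p of 0.266 and 0.383.

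SPRED1 (ENSG00000166068, chromosome 15, 38252836 to 38357249, plus strand) had 6.91 and 7.26 CPM in PA and 24.4 and 11.1 CPM in BSA. Both PA libraries were below both BSA libraries, yet the BSA libraries differed from each other by more than PA differed from BSA replicate 2. The log2 fold change was -1.33 ± 0.46 (SE; edgeR adjusted p = 0.182). This value was -0.63 without BSA replicate 1, -1.78 without BSA replicate 2 and -0.80 with a trend over GC content and length removed. SPRED2 (ENSG00000198369, chromosome 2, 65310851 to 65432637, minus strand) had 49.6 and 51.7 CPM in PA and 64.2 and 61.2 CPM in BSA. Its difference was small but even across libraries, with a log2 fold change of -0.31 ± 0.21 (SE; edgeR adjusted p = 0.402). Against BSA replicates 1 and 2 alone SPRED2 was at -0.34 and -0.27.

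**Figure D2:**
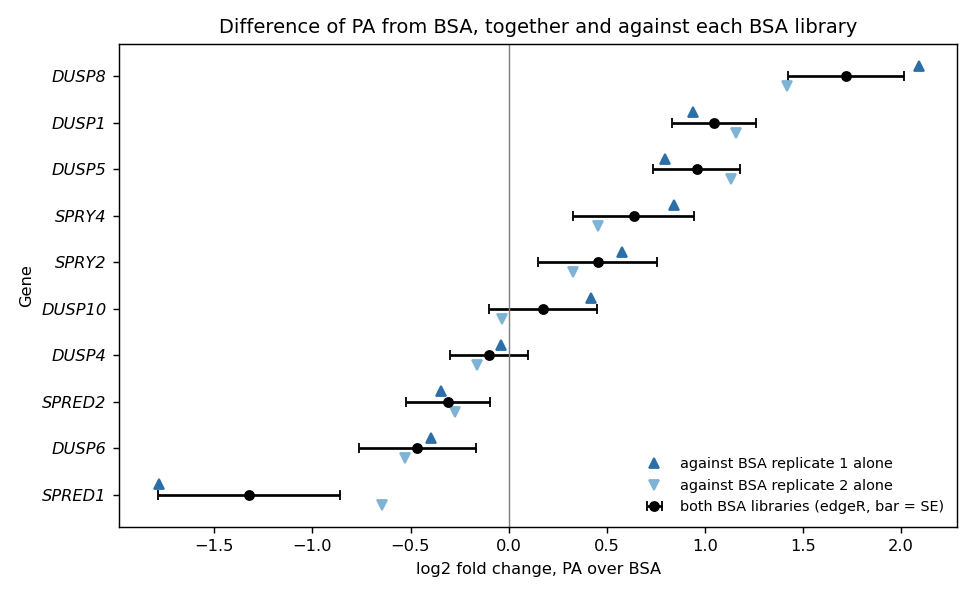
Log2 fold change of PA over BSA for each gene from edgeR with its SE (black), and the mean of the PA libraries against BSA replicate 1 alone or replicate 2 alone (triangles). DUSP8, DUSP1 and DUSP5 are right of 0 against either BSA library, while SPRED1 is at -1.78 against BSA replicate 1 and -0.65 against BSA replicate 2.

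The gap between replicates was larger in BSA than in PA for all 10 genes. The log2 ratio of replicate 2 over replicate 1 ran from -0.22 to 0.09 in PA and from -1.14 to 0.68 in BSA. SPRED1, with the lowest GC content of the members (38.9% over its longest GENCODE transcript), had the lowest BSA ratio, and the median of tested genes in its GC bin (of 10 bins with like numbers of genes) was -0.98. DUSP8, with the highest GC content (64.6%), had the highest BSA ratio, where the median of its bin was 0.39. DUSP1 and DUSP5, at 55.1% and 55.9% GC, had BSA ratios of -0.22 and -0.34, below the medians of 0.40 and 0.45 in their bins. In those bins the PA libraries exceeded BSA replicate 1 by a median of 0.35 and 0.40 over all tested genes, against 0.94 for DUSP1 and 0.80 for DUSP5. Against BSA replicate 2, where the medians were -0.06 and -0.09, DUSP1 and DUSP5 were at 1.16 and 1.14. For SPRED1 the median of its bin was -0.86 against BSA replicate 1 and 0.08 against replicate 2, beside its own -1.78 and -0.65.

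**Figure D3:**
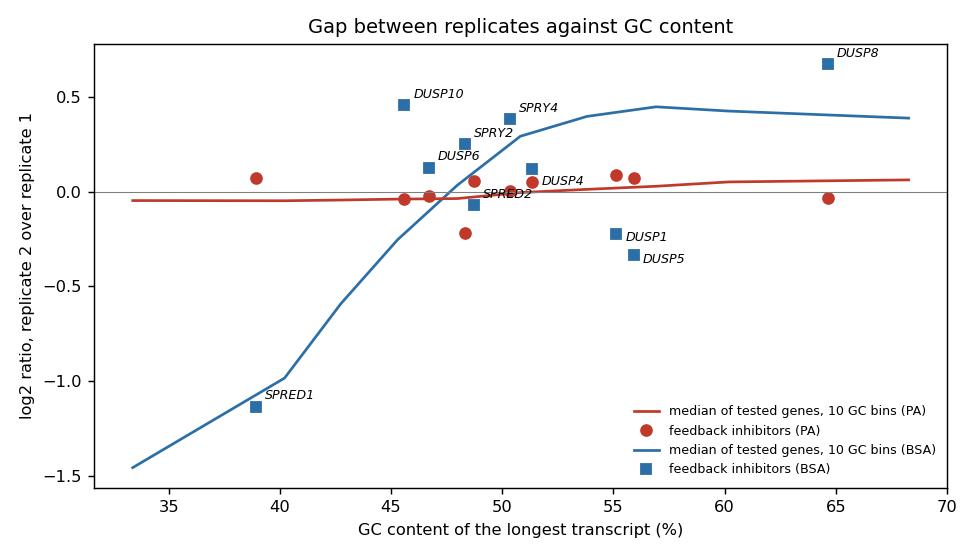
Log2 ratio of replicate 2 over replicate 1 against the GC content of the longest transcript, for PA (red) and BSA (blue), with points for the 10 genes and lines for medians of all tested genes in 10 GC bins. The PA points stay between -0.22 and 0.09, while SPRED1 (-1.14) and DUSP8 (0.68) mark the ends of the BSA points.

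Compared per length, in the authors' FPKM, DUSP1 had the highest level of the 10 genes in both groups, at 248 ± 8.76 FPKM in PA and 127 ± 16.9 FPKM in BSA (SD, n = 2). DUSP5 came next, with 67.8 ± 1.94 FPKM in PA and 36.7 ± 6.92 FPKM in BSA. In PA the order went on with DUSP8, DUSP10, DUSP4, SPRED2, SPRY2, SPRY4, DUSP6 and SPRED1, and no neighbours in that order overlapped between libraries. In BSA it went on with DUSP4, DUSP10, SPRED2, DUSP8, SPRY2, DUSP6, SPRED1 and SPRY4, and DUSP4, DUSP10 and SPRED2 overlapped as neighbours, as did DUSP6, SPRED1 and SPRY4. DUSP8 was thus in position 3 in PA (26.8 ± 0.644 FPKM) and position 6 in BSA (8.53 ± 2.57 FPKM), and SPRY4 was in position 8 in PA (2.59 ± 0.0167 FPKM) and position 10 in BSA (1.74 ± 0.283 FPKM). SPRED1 was last in PA at 0.891 ± 0.024 FPKM, against 2.36 ± 1.31 FPKM in BSA.

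The 6 phosphatase genes together summed to 363 and 377 FPKM in the PA libraries and 213 and 187 FPKM in the BSA libraries. DUSP1 made up 66.8% and 67.6% of that sum in PA and 65.2% and 61.4% in BSA. DUSP6 made up 0.46% and 0.432% in PA and 1.09% and 1.31% in BSA, and DUSP4 3.2% and 3.17% in PA and 6.07% and 7.26% in BSA. The 4 sprouty and spred genes summed to 17.9 and 17.3 FPKM in PA and 20.7 and 18.8 FPKM in BSA, so both PA sums lay slightly below both BSA sums. SPRY2 and SPRY4 took 31.2% and 14.6% of it in PA replicate 1 and 27.3% and 14.9% in PA replicate 2. Their shares were 17.8% and 7.47% in the first BSA library and 22.5% and 10.4% in the other.

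Ratios within a library do not depend on how libraries are scaled, but they can still move with GC content where 2 genes differ in it. The median log2 BSA ratio of replicate 2 over replicate 1 was 0.39 and -0.25 in the GC bins of DUSP8 and DUSP10. It was 0.45 and 0.03 in those of DUSP5 and DUSP6, and 0.29 and -0.98 in those of SPRY4 and SPRED1. The part of this in the ratios was not tested. The FPKM ratio of DUSP8 to DUSP10, which share the stress kinases as substrates, was 2.04 in both PA libraries and 0.64 and 0.744 in the BSA libraries. DUSP5 to DUSP6, the nuclear to the cytoplasmic ERK phosphatase, was 39.8 and 42.5 in PA and 17.9 and 13 in BSA. SPRY4 to SPRED1 was 2.98 and 2.84 in PA and 0.47 and 1.35 in BSA. Of 6 ratios computed, these 3 are given. Each sets a gene higher in PA over one near its BSA level or lower, so groups that lie apart were built in. The ratios were picked with earlier results known and were not tested.

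Of 7 further members (DUSP2, DUSP7, DUSP9, DUSP16, SPRY1, SPRY3 and SPRED3), 0 were higher and 3 lower at an unadjusted p under 0.05 (13.1% and 11.2% of all genes tested), and 0 passed after adjustment. Their median log2 fold change was -0.83, and it was -0.52 without BSA replicate 1 and -0.85 without BSA replicate 2. Removing the trend over GC content and length put 2 past the adjusted threshold, against 8.16% of all genes tested. These were DUSP2 and SPRED3, both lower, and the median was then -0.93. DUSP2, another inducible nuclear phosphatase, had 714 and 663 counts in PA and 2140 and 1904 in BSA, which is a log2 difference of -1.30 ± 0.25 (SE; edgeR adjusted p = 0.0856). It was thus lower where DUSP1 and DUSP5 were higher, and it was between -1.42 and -1.14 over the alternatives. SPRED3 had 113 and 65 counts in PA and 184 and 458 in BSA (log2 fold change -1.61 ± 0.52 SE), and SPRY3 had 31 and 23 counts in PA and 91 and 79 in BSA (-1.41 ± 0.36). The BSA counts of SPRED3 lay far apart, and its log2 fold change was -0.85 without BSA replicate 2 and -2.06 without BSA replicate 1.

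Among 20 genes of the RAS-ERK cascade, 2 were higher and 1 lower at an unadjusted p under 0.05 (13.1% and 11.2% of all genes tested), with a median log2 fold change of -0.25, and 0 passed after adjustment. With the trend over GC content and length removed, 0 passed after adjustment, against 8.16% of all genes tested, and the median turned to 0.035. Leaving out BSA replicate 1 gave a median of -0.05, and leaving out BSA replicate 2 gave -0.26. KSR1, a scaffold that holds the kinases of the cascade together, had 1858 and 1705 counts in PA and 841 and 1038 in BSA (1.19 ± 0.24 SE). MAPK3, which encodes ERK1, had 2565 and 2351 counts in PA and 1760 and 2113 in BSA (0.61 ± 0.22 SE). SOS1, the exchange factor that loads RAS with GTP, had 573 and 389 counts in PA and 1995 and 853 in BSA (-1.35 ± 0.49 SE), and was at -0.52 without BSA replicate 1. Of 18 genes of the p38, JNK and ERK5 cascades, 1 was higher and 1 lower at an unadjusted p under 0.05. The shares of all genes tested were 13.1% and 11.2%. The median of these 18 genes was 0.04, and 0 passed after adjustment. With the trend removed, 1 passed after adjustment, against 8.16% of all genes tested, and the median turned to -0.048. It was 0.15 without BSA replicate 1 and 0.20 without BSA replicate 2. The higher one was MAP2K3, an activator of p38, with 7010 and 5557 counts in PA and 2664 and 3782 in BSA (1.22 ± 0.23 SE). The lower one was MAP2K6, also an activator of p38, with 20 and 33 counts in PA and 312 and 96 in BSA (-2.67 ± 0.76 SE), and the BSA libraries again lay far apart (-1.56 against BSA replicate 2 alone and -3.35 against replicate 1). These activators of the same kinase thus stood on opposite sides. Their transcripts differ in GC content, at 59.3% for MAP2K3 and 38.5% for MAP2K6, and the part of this was not tested. After removal of the trend they were at 1.09 and -1.88. MAP2K6 was close to the detection limit in PA, at 0.04 and 0.08 FPKM.

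Transcripts that depend on ERK activity in many cells were mixed. Of 13 listed, 12 were tested, and 2 were higher and 1 lower at an unadjusted p under 0.05 (13.1% and 11.2% of all genes tested). Together these are 25% of the list, near the 24.3% of all genes tested. The median log2 fold change was -0.14, and 0 were past the adjusted threshold. With the trend over GC content and length removed, 1 higher and 1 lower passed after adjustment, against 8.16% of all genes tested. Without BSA replicate 1 the median was -0.11, and without BSA replicate 2 it was -0.09. EPHA2, an ephrin receptor gene, had 20397 and 16961 counts in PA and 5341 and 5546 in BSA, which is a log2 difference of 2.03 ± 0.21 (SE; edgeR adjusted p = 0.0589). EGR1, an immediate early transcription factor gene, had 317 and 326 counts in PA and 2272 and 2081 in BSA, which is a log2 difference of -2.49 ± 0.28 (SE; edgeR adjusted p = 0.0589). In both genes the replicates were close and the groups far apart. The third, LIF, a cytokine gene, had 3228 and 2376 counts in PA and 1452 and 2326 in BSA (0.82 ± 0.27 SE), and was at 0.58 without BSA replicate 1 and at 1.15 without BSA replicate 2.

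Of 9 other inhibitors of receptors and RAS, 3 were higher and 1 lower at an unadjusted p under 0.05 (13.1% and 11.2% of all genes tested; median 0.34), and 0 passed after adjustment. With the trend over GC content and length removed, 0 passed after adjustment, against 8.16% of all genes tested. DAB2IP was then at a log2 fold change of 0.30 and LRIG1 at 0.47, neither at an unadjusted p under 0.05. With BSA replicate 1 left out the median of the list was 0.54, and with replicate 2 left out it was 0.26. ERRFI1, which blocks the EGF receptor kinase, had 2928 and 2424 counts in PA and 18862 and 6072 in BSA (-1.995 ± 0.59 SE), and was at -0.87 without BSA replicate 1. DAB2IP, a RAS GTPase-activating protein gene, had 2703 and 2249 counts in PA and 1717 and 1841 in BSA (0.73 ± 0.20 SE). LRIG1, a membrane inhibitor of the EGF receptor, had 563 and 562 counts in PA and 335 and 436 in BSA (0.82 ± 0.31 SE). IL17RD, which restrains FGF signalling, was close to the detection limit, with 19 and 11 counts in PA and 7 and 4 in BSA.

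**Figure D4:**
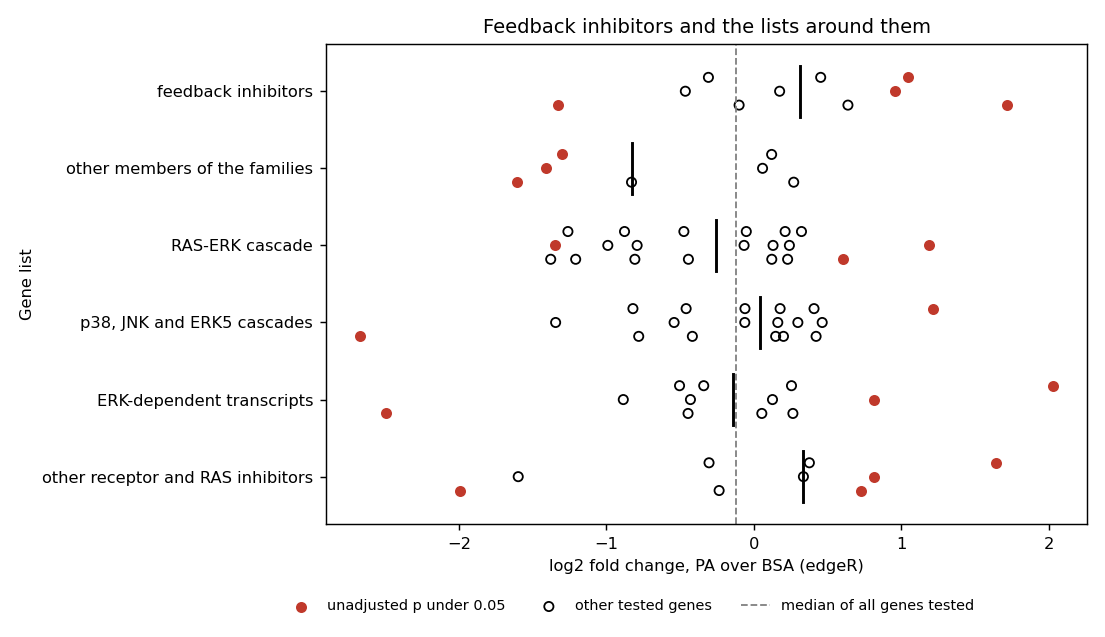
Log2 fold change of PA over BSA (edgeR) for every tested gene of the feedback inhibitors and 5 further lists, with red points for an unadjusted p under 0.05, a black bar at each list's median and a dashed line at the median of all genes tested (-0.12). The medians are 0.31 for the feedback inhibitors and -0.83 for the other members of the families.

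Among the genes whose pattern over the 4 libraries came nearest to that of DUSP8, by the distance between centred log2 CPM values, were THBS3 and RETSAT. THBS3, a thrombospondin gene, had 156 and 147 CPM in PA and 34.7 and 57.3 CPM in BSA. RETSAT, which encodes retinol saturase, had 220 and 223 CPM in PA and 54 and 82.2 CPM in BSA. Their distances to DUSP8 were 0.0511 (THBS3) and 0.0657 (RETSAT), over 4 libraries.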

How the data were processed

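RNA sequencing of 4 TOV-112D libraries was analysed, 2 labelled PA and 2 labelled BSA, grouped by title. HISAT2, StringTie and SAMtools were used with build hg38, per the submitters' processing notes, which give no versions. Annotation release, counting settings and strandedness: not given in the sources here. Reads of overlapping or antisense genes may therefore be shared. Of the members 4 overlap another row of the table, none of which had more than 98 counts in a library, and processed pseudogenes of DUSP5 and DUSP8 may share reads with them. Raw counts for each gene were deposited, together with FPKM values that the authors computed, per the file headers.

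The main test was that of edgeR 4.0.16 under R 4.3.3 (TMM normalisation, filterByExpr, quasi-likelihood F test, Benjamini-Hochberg adjustment over 17449 genes, threshold 0.05, no replicate block). Its code was tested on simulated counts with the same spread in both groups and no trend with GC content, unlike these libraries. The SE was taken as the size of the log2 fold change over the root of F. A gene at 1 CPM rested on 23 to 31.9 counts per library. Comparisons with a single BSA library used log2 CPM with a prior count of 1. As alternatives, DESeq2 1.42.0 and limma-voom (limma 3.58.1) were run, as was limma on the FPKM values with a pseudocount of 1 or 0.1. Within edgeR the factors (upper-quartile, RLE), the filter (none, or 1 CPM in 2 libraries), a replicate block and each library in turn were varied. Another alternative took out a loess trend (span 0.3) with GC content and length (log2) of the longest GENCODE 29 transcript, known for 16596 tested genes (95.1%), with and without the block. The members, lists and tests were chosen with earlier results of these data known. All members are named. Of each other pathway list, up to 4 genes are named with values, those with the smallest p among genes with an unadjusted p under 0.05 and groups that do not overlap. All 9 epithelial markers are named outside this rule, as a check of the cell line, and this was decided after their values were seen. Of the 3 genes nearest to the member of smallest p, 2 are named and the other is not reported here. Motifs were searched in RefSeq windows of GRCh38.p14. Figures were drawn with matplotlib 3.10.9.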

Additional observations from a re-analysis of the deposited data

How the results depend on the processing

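Of 150 values of the 10 members under 15 alternatives, 149 kept the sign of the reported log2 fold change. The exception was DUSP10, at -0.015 without BSA replicate 1 and 0.43 without BSA replicate 2. Its groups overlap, while those of the other 9 members do not. The signs of those 9 could hardly change when a library was left out. In all, 21 of the 150 passed an adjusted p under 0.05, 14 of them in the fits that leave out a BSA library. DUSP8 passed in 7 alternatives, with log2 fold changes from 1.44 to 2.11 over all of them. The median of the members ran from 0.17 to 0.52 over the fits that leave out a library, and from 0.21 to 0.39 over the others. Members at an unadjusted p under 0.05 numbered 3 or 4 in every alternative that kept all libraries. Fewer stood there in the fits without a PA library, where the spread is taken from the BSA libraries alone. In the main fit 24.3% of all genes tested stood at that threshold, a share not worked out for each alternative. For the 15 other named genes, 0 of 224 values changed sign. They were named for a small p and groups that do not overlap in these same libraries. A change of sign was thus hardly possible, and the count says nothing further about them.

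Genes called over the whole table numbered 0 with RLE factors, upper-quartile factors and the CPM filter, 1302 without a filter, 1733 with DESeq2, 1 with limma-voom and 1 with either FPKM pseudocount. With the trend over GC content and length removed there were 1355, and 1359 with the replicate block added. Leaving out a library gave from 9 to 10467. The lowest counts came without a PA library and the highest without a BSA library, where the spread is taken from the PA libraries alone. Without BSA replicate 1, 6 members passed (47.9% of all genes), and without BSA replicate 2, 8 did (57.3%). The cause of these changes was not tested. The groups share replicate numbers, and the deviations of same-numbered libraries had a correlation over genes of 0.004. As the ratio between the BSA libraries moved with GC content, this value cannot settle whether same-numbered libraries were handled together. The labels do not say. With the replicate block edgeR called 537 genes against 0 without it, among them DUSP8 (adjusted p = 0.0292), and members at an unadjusted p under 0.05 numbered 4. Low counts limit SPRY3, with 23 to 91 counts per library, IL17RD, with 4 to 19, and MAP2K6 in PA, with 20 and 33.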
